A study of Mus musculus with 18 samples.

Results

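Vascular endothelial growth factor (VEGF) genes were examined in mouse retina after an intravitreal steroid injection. The set held the ligand genes Vegfa, Vegfb, Vegfc and Pgf, the receptor genes Flt1 and Kdr, the co-receptor gene Nrp1, and Hif1a, which encodes the oxygen-sensitive subunit of a hypoxia factor. All probe sets were taken that the platform annotation gives to one of these 8 genes alone, which came to 20 of the 45037 probe sets tested, and 8 of 18193 genes. A probe set is a group of short probes on the array that are combined into a single value, and it can match several transcripts. Flt1, Nrp1 and Hif1a had 4 probe sets each, Vegfc had 3, Vegfa had 2, and Vegfb, Pgf and Kdr had 1 each. No filter on low values was applied, so every member was tested.

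VEGF-A is secreted by Müller glia, astrocytes and neurons of the retina, binds receptors on vascular endothelium, and drives vessel growth and leakage. Its gene is a classical target of hypoxia-inducible factor, whose alpha subunit is made continuously and destroyed while oxygen is present, so that the protein can vary with no difference in Hif1a RNA. Intravitreal steroids are given to patients for macular oedema, in which VEGF-A is a main therapeutic target.

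All retinas came from 2-month-old male C57BL6/J mice whose eyes had been injected once into the vitreous on day 0. At day 7 the groups were DEX (dexamethasone), TAA (the label for triamcinolone) and BSS (the control injection), and at day 30 the same 3 treatments were sampled again. Each of the 6 groups held 3 arrays described as biological replicates, and the labels do not say whether any 2 retinas shared an animal. Every group, BSS included, carried an injection, no uninjected group is analysed here, and the doses are not given in the labels. The question was how either steroid altered retinal transcripts at an early and a late day.

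Values are relative log2 values, centred on 0 over the 18 arrays for each probe set. They show how an array differs from the others and hold no expression level, so the label retina could not be checked against the level of retinal markers, and levels could not be compared between genes. A difference of 1 is taken as a 2-fold difference, since the log base and the direction follow the convention of the authors' method. Arrays differed in how far they strayed from the centre, with a standard deviation over probe sets of 0.146 to 0.349. The widest were TAA day 30 replicate 2 (0.349) and TAA day 7 replicate 2 (0.338). TAA day 7 replicate 2 is named often below, because 7 of the 20 probe sets had their highest value on it. The mean size of the 20 values was 0.444 there, against 0.108 to 0.298 on the other arrays. The mean correlation over probe sets with the other 2 arrays of the group was below 0 for BSS day 7 replicate 1 (-0.149), DEX day 30 replicate 3 (-0.0642), TAA day 7 replicate 1 (-0.0389) and TAA day 30 replicate 2 (-0.0238). Groups were compared with limma, with Benjamini-Hochberg adjusted p-values taken over the whole array.

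None of the 20 probe sets passed an adjusted p of 0.05 in any of the 11 comparisons. The share of all probe sets that passed was 0% for DEX against BSS at day 7, 0.00222% for TAA against BSS at day 7, and 0% for either drug against BSS at day 30. It was 0% for DEX against TAA on both days and for both changes of a drug effect between the days. Between the days it was 1.92% in DEX, 0% in TAA and 0.0133% in BSS. Leaving out 1 array changed some of these shares. Without DEX day 30 replicate 3, 4.46% passed for DEX against BSS at day 30, with 0 of the 20 members among them, and 6.71% for DEX against TAA at day 30, with 1 of the 20. With no member called in these fits, the words higher and lower below describe values and are no calls. Most differences were small, with a median size over the 20 probe sets of 0.12 for DEX against BSS at day 7, against 0.08 for all probe sets. Of the 80 differences from BSS (20 probe sets, 2 drugs, 2 days), 68 moved by more than 1.5 times when 1 array was left out.

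**Figure D1:**
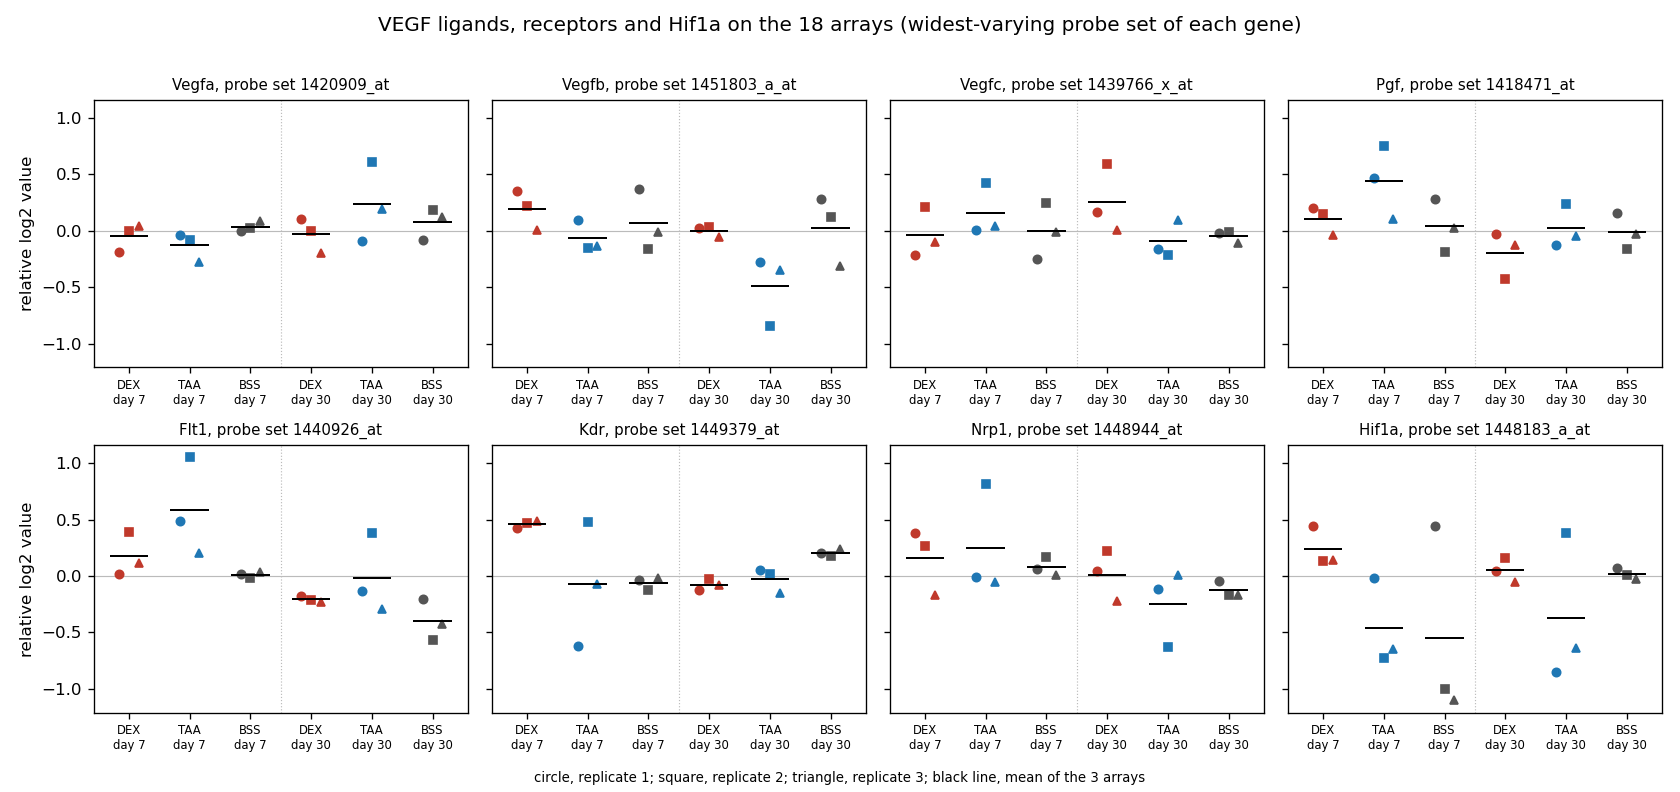
Relative log2 value of the probe set described first for each of the 8 genes (vertical axis) on every array of the 6 groups, with a line at the mean of 3 arrays. The Kdr points of DEX day 7 lie close together at 0.42 to 0.49, while the Hif1a points of BSS day 7 run from -1.1 to 0.45.

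Vegfa, the main driver of vessel growth and permeability, lies on chromosome 17 (chr17:46016993-46032377, GRCm38.p6). At day 7 its probe set 1420909_at was at -0.19, 0.00 and 0.04 in DEX retinas, at -0.04, -0.08 and -0.27 in TAA retinas, and at 0.00, 0.02 and 0.09 in BSS retinas. The DEX and BSS arrays overlapped, whereas all TAA arrays lay below all BSS arrays. The DEX difference was -0.08 ± 0.14 (SE; 95% interval -0.39 to 0.22) and the TAA difference was -0.17 ± 0.14 (-0.47 to 0.14), with an adjusted p of 1 in each. The TAA value was -0.09 without TAA day 7 replicate 3. At day 30 the same probe set was at 0.10, 0.00 and -0.19 in DEX retinas, -0.09, 0.61 and 0.20 in TAA retinas, and -0.08, 0.19 and 0.12 in BSS retinas. The groups overlapped, and the highest value of all 18 arrays was that of TAA day 30 replicate 2. The difference was -0.11 ± 0.14 for DEX (95% interval -0.41 to 0.20) and 0.16 ± 0.14 for TAA (-0.14 to 0.47), and the TAA value was -0.02 without that array. Each drug is set against the same BSS arrays of its day, so the 2 differences are not independent.

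The other Vegfa probe set, 1451959_a_at, followed the first only loosely (Pearson r = 0.33 over 18 arrays). It was at 0.09, 0.01 and 0.11 in DEX day 7 retinas and at 0.03, -0.05 and -0.13 in BSS day 7 retinas, a difference of 0.12 ± 0.11. At day 30 it was at -0.04, -0.14 and -0.01 in DEX retinas, against 0.06, 0.10 and 0.11 in BSS retinas. All DEX arrays lay below all BSS arrays there, with a difference of -0.16 ± 0.11 (95% interval -0.40 to 0.08, adjusted p = 0.606). The intervals of both probe sets on both days thus include 0 for DEX, and their lowest bound is -0.41. In TAA retinas 1451959_a_at was at 0.27, -0.21 and -0.03 at day 7, and at -0.06, 0.22 and -0.07 at day 30. These arrays overlapped BSS on both days. TAA retinas averaged 0.01, against -0.05 in BSS retinas, at day 7, and 0.03, against 0.09, at day 30. For TAA the direction was thus opposite to that of the first probe set on both days.

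Vegfb (chr19:6982472-6987651), a ligand of Flt1 that is known mostly for effects on vessel survival and metabolism, was lower in TAA retinas at day 30 without passing the test. At day 30 its probe set 1451803_a_at was at -0.28, -0.84 and -0.35 in TAA retinas, 0.03, 0.03 and -0.05 in DEX retinas, and 0.28, 0.12 and -0.31 in BSS retinas. All TAA arrays were low, and 1 BSS array was also low, so that these groups overlapped. The TAA difference from BSS was -0.52 ± 0.17 (95% interval -0.88 to -0.16, 0.697-fold, limma unadjusted p = 0.00743, adjusted p = 0.721). It was -0.34 without TAA day 30 replicate 2. At day 7 Vegfb lay at 0.10, -0.15 and -0.13 in TAA retinas, 0.35, 0.22 and 0.01 in DEX retinas, and 0.37, -0.16 and -0.01 in BSS retinas, with all groups overlapping.

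Vegfc (chr8:54077532-54186454), the ligand that acts mainly through Flt4 on lymphatic endothelium, was measured by 3 probe sets that correlated with each other at 0.40 to 0.58 over the arrays. After DEX at day 7 probe set 1440739_at was at 0.10, 0.34 and 0.15, against -0.20, 0.05 and -0.03 in BSS retinas. The arrays did not overlap, and the difference was 0.26 ± 0.13 (adjusted p = 1). The other 2 probe sets were at -0.03 ± 0.16 and 0.06 ± 0.15 in that comparison. After DEX at day 30 probe set 1439766_x_at was at 0.17, 0.59 and 0.01, against -0.02, -0.01 and -0.11 in BSS retinas. These groups did not overlap, the difference was 0.30 ± 0.16 (adjusted p = 0.487), and it was 0.14 without DEX day 30 replicate 2. The suffix of this probe set marks probes that may match other sequences too. Probe set 1419417_at was at 0.24 ± 0.15 in the same comparison and at 0.07 without DEX day 30 replicate 1. For TAA against BSS the 3 probe sets ranged from -0.02 to 0.16 at day 7 and from -0.05 to 0.03 at day 30.

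Pgf (chr12:85166637-85177785) encodes placental growth factor, a ligand that binds Flt1 and not Kdr. At day 7 it was at 0.47, 0.75 and 0.10 in TAA retinas, 0.20, 0.15 and -0.04 in DEX retinas, and 0.28, -0.19 and 0.03 in BSS retinas. The TAA arrays were high on replicates 1 and 2, and the third overlapped BSS. The TAA difference was 0.40 ± 0.16 (95% interval 0.05 to 0.74, limma unadjusted p = 0.0263, adjusted p = 1), and 0.24 without TAA day 7 replicate 2. At day 30 the TAA difference was 0.03 ± 0.16 and the DEX difference -0.19 ± 0.16.

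Flt1 (chr5:147561604-147726438) encodes VEGF receptor 1, which binds VEGF-A, VEGF-B and placental growth factor with high affinity and, in its soluble form, traps them. Kdr (chr5:75932827-75979072) encodes VEGF receptor 2, the main signalling receptor of vascular endothelium. Their promoter windows are shown together with that of Hif1a, because the values described next turn on these genes. Each window holds the 250 bases before the start given in the RefSeq promoter table (GRCm38.p6). The gene spans printed here reach farther upstream than that start for these 3 genes, so the windows lie inside the spans. The windows are read 5′ to 3′ on the gene's strand, and capitals mark matches on either strand to the core letters of a hypoxia factor site, ACGTG or GCGTG.
Flt1 (chr5:147726012-147726261, minus strand): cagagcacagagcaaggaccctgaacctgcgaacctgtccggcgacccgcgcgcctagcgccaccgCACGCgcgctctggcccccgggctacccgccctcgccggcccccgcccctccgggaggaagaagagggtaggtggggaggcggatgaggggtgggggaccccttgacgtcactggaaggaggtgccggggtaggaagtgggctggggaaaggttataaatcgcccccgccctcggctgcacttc
Kdr (chr5:75978456-75978705, minus strand): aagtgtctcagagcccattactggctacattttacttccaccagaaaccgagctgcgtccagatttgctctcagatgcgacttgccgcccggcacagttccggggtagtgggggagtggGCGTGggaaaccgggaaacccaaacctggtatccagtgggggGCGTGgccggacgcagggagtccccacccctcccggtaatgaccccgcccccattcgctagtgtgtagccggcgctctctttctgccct
Hif1a (chr12:73907617-73907866, plus strand): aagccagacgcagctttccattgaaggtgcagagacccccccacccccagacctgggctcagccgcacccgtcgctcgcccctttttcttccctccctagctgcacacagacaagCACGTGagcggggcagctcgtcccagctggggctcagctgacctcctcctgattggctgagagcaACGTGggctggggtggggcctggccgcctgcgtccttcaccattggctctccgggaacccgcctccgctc
Flt1 had 1 match, 184 bases before the start. Kdr had 2, at 131 and 89 bases before it. Hif1a had 3, and those at 135 and 134 bases overlap within a single CACGTG, a palindrome that is also the E-box read by many other factors. Such a short motif is common, and 38.6% of 32851 windows of the same length hold it. In the first window of each of the other members, Vegfb had 2 matches, Pgf and Nrp1 had 1 each, and Vegfa and Vegfc had 0, while a second Vegfa window had 2. The steroid receptor half-site AGAACA, searched on both strands, was in none of the members' windows and in 16.1% of all windows. The full palindromic glucocorticoid response element was in 3 windows of all genes and in none of these. No match says only that the letters are not in this window, and a match describes letters, not a bound site.

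All 4 Flt1 probe sets averaged above BSS after TAA at day 7. Probe set 1440926_at was at 0.49, 1.05 and 0.21 in TAA retinas, 0.02, 0.39 and 0.12 in DEX retinas, and 0.02, -0.02 and 0.04 in BSS retinas. All TAA arrays lay above all BSS arrays, with replicate 2 highest. The TAA difference was 0.57 ± 0.19 (95% interval 0.18 to 0.96, 1.49-fold, limma unadjusted p = 0.00668, adjusted p = 1), and 0.34 without TAA day 7 replicate 2. Probe set 1451756_at was at 0.50, 0.28 and 0.43 in TAA retinas, 0.00, -0.22 and 0.19 in DEX retinas, and 0.12, -0.05 and 0.00 in BSS retinas. The TAA arrays again did not overlap BSS, and the difference of 0.38 ± 0.18 stayed between 0.33 and 0.44 with any 1 array left out. Probe sets 1419300_at and 1454037_a_at were at 0.33 ± 0.14 and 0.34 ± 0.14 with overlapping arrays, and the first of them was at 0.17 without TAA day 7 replicate 2. The 4 probe sets measure 1 gene on the same arrays and are not separate evidence. The corresponding DEX differences at day 7 were 0.16, -0.03, 0.17 and 0.06.

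Genes listed as markers of reactive gliosis, a state of stressed Müller glia and astrocytes, correlated with Pgf at r = 0.80 over the 18 arrays. Whether their mean measures glial stress in steroid-injected eyes was not tested. For Flt1 the correlation was 0.80 with 1440926_at, 0.73 with 1454037_a_at, 0.70 with 1419300_at and 0.51 with 1451756_at. These correlations share the arrays' own spread and carry no test. The mean of the 11 measured genes was 0.87, 2.53 and 0.02 on the TAA day 7 arrays, 0.55, 0.78 and 0.33 on the DEX day 7 arrays, and -0.24, -0.64 and -0.25 on the BSS day 7 arrays. The array with the highest gliosis mean, TAA day 7 replicate 2, was thus also the one with the highest Flt1 1440926_at and Pgf values, whereas Flt1 1451756_at was lowest of its group there (0.28). The mean of 19 endothelial genes was -0.09, 0.16 and -0.04 on the TAA day 7 arrays, against 0.01, 0.04 and 0.01 on the BSS arrays, and the value of 0.16 on replicate 2 was the highest of all 18 arrays. The part of gliosis and of endothelium in the Flt1 and Pgf values was not tested. In whole retina, fewer cells of a type and less RNA per cell cannot be told apart.

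**Figure D2:**
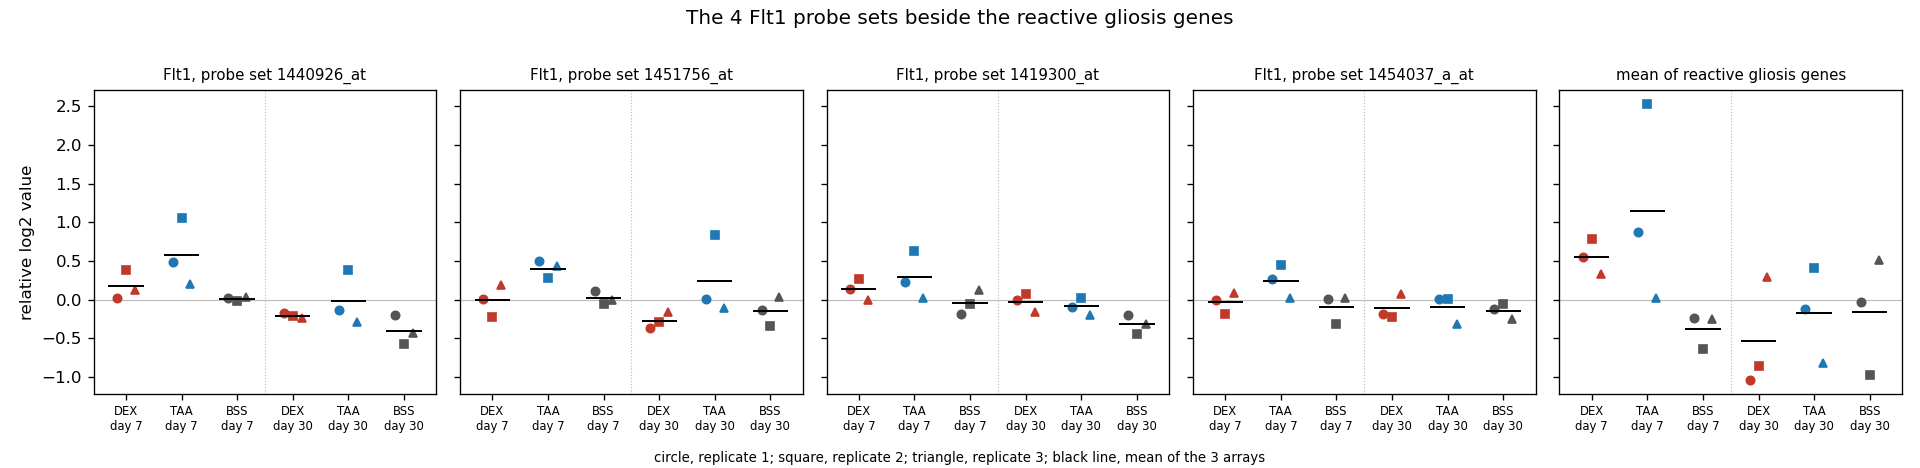
Relative log2 value (vertical axis) of the 4 Flt1 probe sets and the mean of the 11 reactive gliosis genes on each array of the 6 groups, with a line at the mean of 3 arrays. TAA day 7 replicate 2 is the highest point for 1440926_at (1.05) and for the gliosis mean (2.53).

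At day 30 Flt1 probe set 1440926_at was at -0.17, -0.21 and -0.23 in DEX retinas, -0.13, 0.38 and -0.29 in TAA retinas, and -0.20, -0.57 and -0.43 in BSS retinas. All 3 groups overlapped. The TAA difference from BSS was 0.39 ± 0.19 (adjusted p = 0.742) and was 0.19 without TAA day 30 replicate 2. Probe set 1451756_at was at 0.01, 0.83 and -0.11 in TAA retinas, against -0.13, -0.33 and 0.04 in BSS retinas. Its difference was 0.39 ± 0.18 (adjusted p = 0.738) and rested on the single high array, without which it was 0.10. Probe set 1419300_at was at -0.09, 0.03 and -0.20 in TAA retinas, against -0.20, -0.44 and -0.31 in BSS retinas. All TAA arrays lay above all BSS arrays, by a difference of 0.23 ± 0.14 that stayed between 0.17 and 0.29 with any 1 array left out. Probe set 1454037_a_at averaged -0.10 in TAA retinas, against -0.14 in BSS retinas, with overlapping arrays. For DEX the probe set with the largest difference was 1419300_at, at 0.00, 0.07 and -0.16, against -0.20, -0.44 and -0.31 in BSS retinas. These arrays did not overlap, and the difference was 0.29 ± 0.14 (adjusted p = 0.445). The remaining DEX differences were 0.19, -0.13 and 0.03, so the probe sets did not share a direction.

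Kdr separated DEX from BSS on both days, in opposite directions. At day 7 its probe set 1449379_at was at 0.42, 0.47 and 0.49 in DEX retinas, -0.62, 0.48 and -0.07 in TAA retinas, and -0.03, -0.12 and -0.02 in BSS retinas. All DEX arrays lay above all BSS arrays with a gap wider than the spread of either group, whereas the TAA arrays ran from below both groups into the DEX range. DEX retinas averaged 0.46 ± 0.03, against -0.06 ± 0.06 in BSS retinas (SD, n = 3 each). The difference was 0.52 ± 0.17 (SE; 95% interval 0.15 to 0.88, 1.43-fold). Across all probe sets it did not pass (limma unadjusted p = 0.00816, adjusted p = 1), and it lay between 0.49 and 0.54 with any 1 array left out. The TAA difference was -0.01 ± 0.17 (95% interval -0.38 to 0.35), and single arrays turned it. Leaving out TAA day 7 replicate 1 gave 0.26, and leaving out TAA day 7 replicate 2 gave -0.29.

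At day 30 Kdr was at -0.12, -0.02 and -0.08 in DEX retinas, 0.05, 0.02 and -0.15 in TAA retinas, and 0.21, 0.17 and 0.24 in BSS retinas. All arrays of either drug lay below all BSS arrays. The difference was -0.28 ± 0.17 for DEX (95% interval -0.65 to 0.08, adjusted p = 0.538) and -0.23 ± 0.17 for TAA (-0.60 to 0.13, adjusted p = 0.831). The DEX effect itself differed between the days by -0.80 ± 0.25 (day 30 minus day 7; 95% interval -1.32 to -0.28). This was tested directly and did not pass over all probe sets (limma unadjusted p = 0.00442, adjusted p = 0.491), and it lay between -0.83 and -0.77 with any 1 array left out. A fit on the 12 arrays compared alone called Kdr (adjusted p = 0.0376), as did a fit that weighted arrays by how closely they follow their group (adjusted p = 0.0137). The first of these fits called 0.0222% of all probe sets and the weighted one 6.16%. Both gave less part to the arrays on which Kdr varied most. Its SD was 0.55 in TAA day 7, against 0.03 to 0.11 in the other groups. The 12-array fit left the TAA arrays out, and the difference stayed at -0.80 with an SE of 0.11. The weighted fit gave TAA day 7 replicates 1 and 2 weights of 0.59 and 0.28, against 4.23 for replicate 3. The BSS arrays themselves were 0.27 ± 0.17 higher at day 30 than at day 7. Ordered by group mean, Kdr was highest in DEX day 7 (0.46), next in BSS day 30 (0.21), then in TAA day 30 (-0.03), BSS day 7 (-0.06), TAA day 7 (-0.07) and DEX day 30 (-0.08). DEX day 7 did not overlap with BSS day 30 (a pair that was not tested), nor BSS day 30 with TAA day 30, and each later pair of neighbours overlapped.

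The mean of endothelial genes other than the members lay on the same side of BSS as Kdr in DEX retinas, by a smaller margin, while the single genes were mixed at day 7. The mean of 19 endothelial genes was 0.08, 0.09 and 0.05 on DEX day 7 arrays, against 0.01, 0.04 and 0.01 on BSS day 7 arrays. It was -0.11, -0.12 and -0.11 on DEX day 30 arrays, against 0.02, -0.07 and 0.11 on BSS day 30 arrays. In the DEX comparison at day 7, 11 of these 19 genes lay above BSS and 8 below, with a median of 0.01, against -0.01 over all probe sets. The arrays lay wholly above BSS for 3 of them and wholly below for 2, where 13.8% of all probe sets did not overlap in either direction. At day 30, 15 of these 19 genes lay below BSS and 7 had arrays wholly below BSS, where 8.6% of all probe sets did. None of the 19 passed, and their median was -0.15, against -0.02 over all probe sets. Between the days within DEX, the receptor-associated gene Ramp2 fell by 0.66 ± 0.12 (adjusted p = 0.0237) and the transporter gene Slco1a4 of the blood-retina barrier fell by 0.49 ± 0.10 (adjusted p = 0.0316). With each of the 6 DEX arrays left out in turn, Ramp2 no longer passed in 4 fits (adjusted p up to 0.163) and Slco1a4 in 5 (up to 0.167). Genes from the gliosis and microglia lists that also passed between the days in DEX were Gfap (-1.79 ± 0.40), Stat3 (-0.87 ± 0.21) and Tmem119 (-0.53 ± 0.12). They no longer passed in 5, 5 and 4 of these fits. All 11 measured gliosis genes (median -0.93) and all 14 microglia genes (median -0.71) were lower at day 30 in that comparison, against a median of 0.00 over all probe sets. Kdr correlated with the endothelial mean at 0.68 and with the Müller glia mean at 0.66 over the 18 arrays. The microglia mean was 0.66, 0.58 and 0.12 on DEX day 7 arrays, against 0.03, -0.17 and 0.24 on BSS day 7 arrays. The part of these cell types in the Kdr values was not tested.

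**Figure D3:**
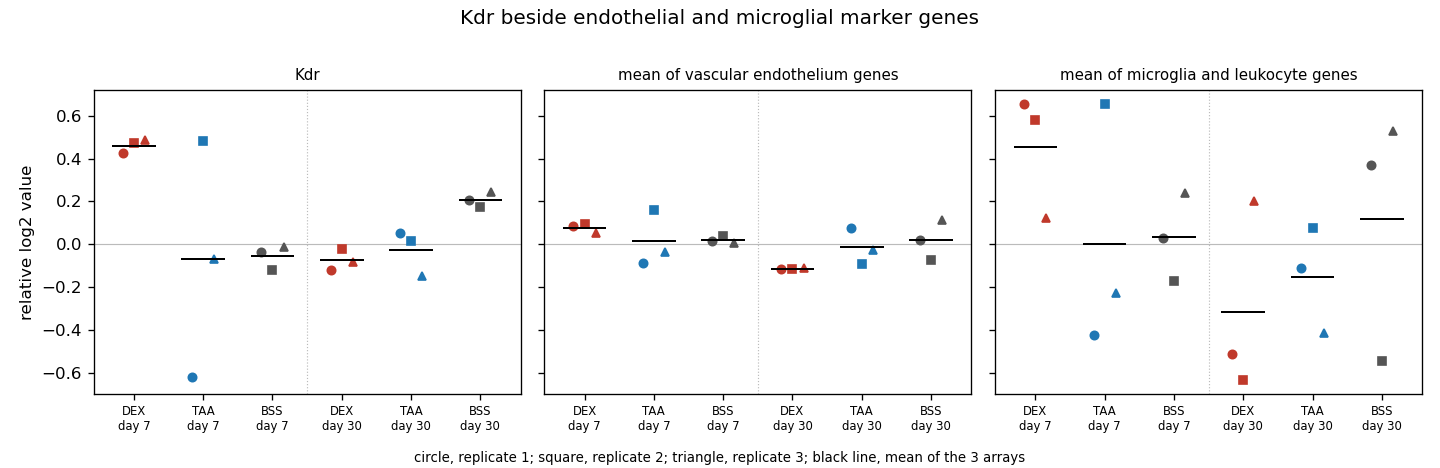
Relative log2 value of Kdr and means of the endothelial and microglial marker genes (vertical axis) on each array of the 6 groups, with a line at the mean of 3 arrays. Kdr lies at 0.42 to 0.49 in DEX day 7 and at -0.12 to -0.02 in DEX day 30, against -0.12 to -0.02 in BSS day 7 and 0.17 to 0.24 in BSS day 30.

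Nrp1 (chr8:128358591-128505476) encodes neuropilin-1, a co-receptor that presents VEGF-A to Kdr and also binds semaphorins. Of its 4 probe sets, 3 correlated with one another (r of 0.79 to 0.86 over 18 arrays), while 1457198_at ran against them (r of -0.56 to -0.44). What the odd probe set measures was not tested. Its differences from BSS were -0.10 for DEX and -0.07 for TAA at day 7, and 0.12 for DEX and 0.01 for TAA at day 30. Among the 3, the spread was set by single arrays. Probe set 1418084_at was at -0.10, 0.97 and 0.16 in TAA day 7 retinas, 0.18, 0.13 and 0.19 in DEX day 7 retinas, and -0.13, -0.08 and 0.04 in BSS day 7 retinas. The TAA value rested on replicate 2, and the DEX arrays lay above all BSS arrays. The DEX difference was 0.22 ± 0.24 (adjusted p = 1), and the TAA difference was 0.40 ± 0.24, or 0.09 without TAA day 7 replicate 2. The same array set the other 2 TAA differences of 0.17 and 0.38, which were -0.11 and 0.09 without it. At day 30 the 3 probe sets were at 0.14 to 0.31 for DEX and at -0.23 to 0.11 for TAA relative to BSS, with overlapping arrays throughout. The highest of these, 0.31 for 1448943_at after DEX, was 0.13 without DEX day 30 replicate 2, and the lowest, -0.23 for 1418084_at after TAA, was -0.12 without TAA day 30 replicate 2.

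Hif1a (chr12:73901324-73947554) showed disagreement among its probe sets. Probe set 1448183_a_at varied more over the arrays than 99.6% of all probe sets (interquartile range 0.78), while the other 3 had interquartile ranges of 0.17, 0.15 and 0.12. At day 7 it was at 0.45, 0.14 and 0.14 in DEX retinas, -0.01, -0.73 and -0.65 in TAA retinas, and 0.45, -1.0 and -1.1 in BSS retinas. The BSS arrays split, with replicate 1 level with the highest DEX array and the other 2 far below. The DEX difference was 0.79 ± 0.33 (95% interval 0.09 to 1.49, limma unadjusted p = 0.0287, adjusted p = 1). It was 1.29 without BSS day 7 replicate 1 and 0.52 without BSS day 7 replicate 3. The other 3 probe sets did not share it, with DEX differences of 0.17 ± 0.13, -0.00 ± 0.09 and -0.12 ± 0.11. The last of them, 1427418_a_at, was at -0.05, -0.03 and -0.05 in DEX retinas, against 0.07, 0.13 and 0.02 in BSS retinas. All DEX arrays lay below all BSS arrays there. Correlations of the other 3 probe sets with 1448183_a_at were 0.28, -0.27 and -0.23. The DEX difference of 0.79 was thus carried by 1 of the 4 probe sets.

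At day 30 probe set 1448183_a_at was at 0.05, 0.16 and -0.05 in DEX retinas, -0.85, 0.38 and -0.64 in TAA retinas, and 0.07, 0.01 and -0.03 in BSS retinas. DEX and BSS were close together, and the TAA arrays split on both sides of them. The DEX difference was 0.03 ± 0.33 and the TAA difference -0.39 ± 0.33 (adjusted p = 0.859). With single TAA arrays left out, the TAA value ran from -0.76 (replicate 2 out) to -0.15 (replicate 1 out). The other 3 probe sets ranged from -0.17 to 0.20 for DEX and from 0.03 to 0.06 for TAA. These 3 spanned -0.34 to 0.29 over all 18 arrays. Among them, 1431981_at had all DEX day 30 arrays below all BSS day 30 arrays, but only just. Its highest DEX value was -1e-04 and its lowest BSS value 1e-04.

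**Figure D4:**
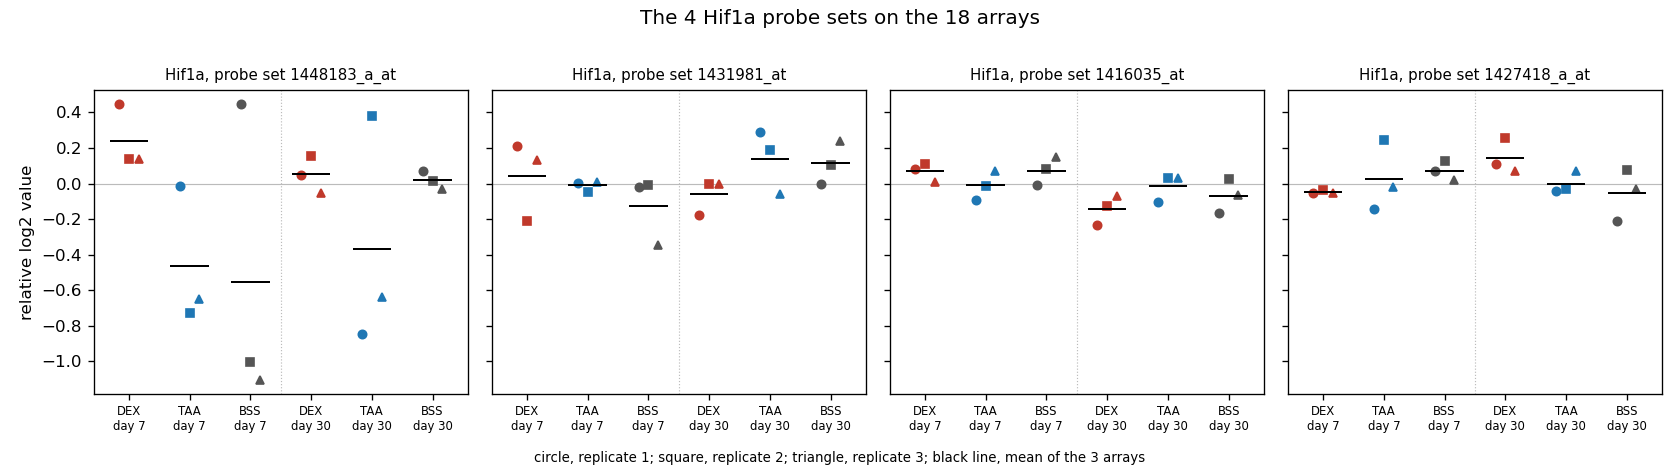
Relative log2 value (vertical axis) of the 4 Hif1a probe sets on each array of the 6 groups, with a line at the mean of 3 arrays. Probe set 1448183_a_at spans -1.1 to 0.45, while the other 3 stay between -0.34 and 0.29.

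The counts over all 20 probe sets can be read against the whole array. For DEX against BSS at day 7, 14 lay above 0 and 6 below, with a median of 0.10, against -0.01 over all probe sets. The arrays did not overlap for 4 of the 20, against 13.8% of all probe sets, and 2 had an unadjusted p under 0.05, against 3.38%. For TAA against BSS at day 7, 13 lay above 0, 3 did not overlap against 9.91%, and 4 had an unadjusted p under 0.05 against 3.75%. Those 4 were Pgf and 3 probe sets of Flt1, so only 2 genes stood behind them. For DEX against BSS at day 30, 12 lay above 0, 5 did not overlap against 13.9%, and 0 had an unadjusted p under 0.05 against 11.3%. For TAA against BSS at day 30, 12 lay above 0, 2 did not overlap against 12.8%, and 2 had an unadjusted p under 0.05 against 6.74%. With 20 probe sets of 8 genes, none of these shares is read as particular to the set.

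**Figure D5:**
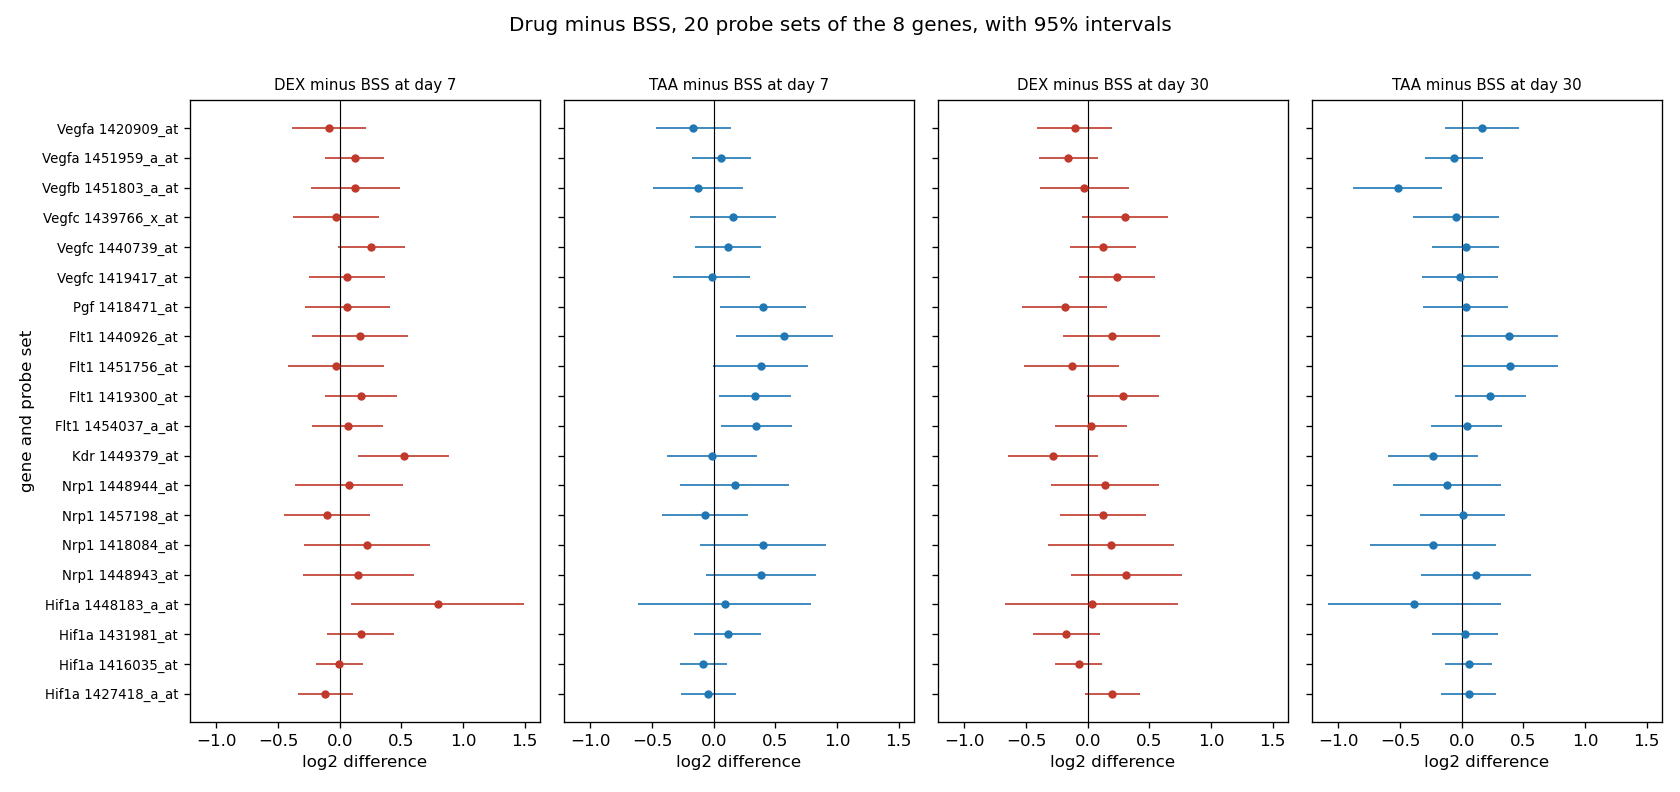
Log2 difference of each of the 20 probe sets from BSS of the same day (horizontal axis) for DEX and TAA at day 7 and day 30, with bars for the 95% interval. Kdr after DEX at day 7 (0.52), Hif1a 1448183_a_at (0.79) and Vegfb after TAA at day 30 (-0.52) are among those with intervals that exclude 0, and none of the 20 passed after adjustment.

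DEX and TAA were also set against each other on each day, with the doses unknown. At day 7 Kdr was higher after DEX by 0.53 ± 0.17 (95% interval 0.16 to 0.89, adjusted p = 0.712), or by 0.25 without TAA day 7 replicate 1. Leaving out replicate 2 of that group gave 0.80. Flt1 1451756_at was lower after DEX by a difference of -0.41 ± 0.18 and its arrays did not overlap (adjusted p = 0.807). Hif1a 1448183_a_at was at 0.70 ± 0.33 and also did not overlap. These were the 2 of 20 probe sets without overlap, against 12.2% of all probe sets. At day 30 Vegfb was higher after DEX by 0.49 ± 0.17 (95% interval 0.13 to 0.85, adjusted p = 0.175) with no overlap, and by 0.32 without TAA day 30 replicate 2. Flt1 1451756_at was at -0.52 ± 0.18 (adjusted p = 0.181), or -0.23 without TAA day 30 replicate 2. Here 3 of 20 did not overlap, against 14% of all probe sets. Vegfa 1420909_at differed between the drugs by 0.08 ± 0.14 at day 7 (95% interval -0.22 to 0.38) and by -0.27 ± 0.14 at day 30 (-0.57 to 0.03), or -0.09 without TAA day 30 replicate 2.

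The 2 days were also compared within each treatment, as day 30 minus day 7. In BSS retinas Flt1 1440926_at was lower at day 30 by a difference of -0.41 ± 0.19, with no overlap (adjusted p = 0.668), and 8 of 20 probe sets did not overlap, against 21.1% of all probe sets. In DEX retinas Kdr was lower at day 30 with a difference of -0.54 ± 0.17 (95% interval -0.90 to -0.17, adjusted p = 0.109), and 5 of 20 did not overlap, against 24%. Nrp1 1457198_at was at 0.47 ± 0.16 in the same comparison (adjusted p = 0.141), or 0.28 without DEX day 30 replicate 3 and 0.30 without DEX day 7 replicate 2. In TAA retinas 14 of 20 probe sets lay below 0, 6 lay above, and 3 did not overlap, against 12.8%. The median size was 0.28, against 0.12 for all probe sets. Nrp1 1418084_at, 1448943_at and 1448944_at were at -0.61, -0.53 and -0.50, or -0.29, -0.24 and -0.22 without TAA day 7 replicate 2. Pgf was at -0.42, or -0.26 without that array, and Vegfb at -0.43, or -0.25 without TAA day 30 replicate 2. Flt1 1440926_at was at -0.60 ± 0.19 in TAA retinas (adjusted p = 0.283), or -0.36 without TAA day 7 replicate 2. Vegfa 1420909_at was at 0.37 ± 0.14 (adjusted p = 0.353), or 0.18 without TAA day 30 replicate 2. The differences between the days use the same arrays as the drug comparisons.

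Partners of the pathway were described from lists of named genes. In VEGF signalling, which held the lymphatic receptor Flt4, the endothelial nitric oxide synthase Nos3, the plexin Plxnd1 and kinases downstream of the receptors, 16 genes were measured. None passed in any drug comparison. After DEX at day 7, 11 lay above BSS and 5 below (median 0.06). After DEX at day 30, 3 lay above and 13 below (median -0.12, against -0.02 over all probe sets). The members of smallest p there were Flt4 at -0.42 ± 0.13 (adjusted p = 0.374), Nos3 at -0.35 ± 0.11 and the kinase Src at -0.38 ± 0.15. Nos3 was at -0.35, -0.63 and -0.33 in DEX day 30 retinas, against 0.01, -0.27 and 0.02 in BSS day 30 retinas, and these did not overlap. Within DEX it was the only gene of this list to pass between the days, and it fell by 0.54 ± 0.11 (adjusted p = 0.0316), and it no longer passed in 4 of the 6 fits without 1 DEX array (adjusted p up to 0.171). After TAA at day 30, 5 lay above BSS and 11 below, with Plxnd1 at -0.24 ± 0.12 and the adaptor Grb2 at -0.28 ± 0.15.

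Of 19 measured angiogenic ligands, receptors and inhibitors, none passed. After DEX at day 7, 13 lay above BSS, with the growth factor Fgf2 at 0.68 ± 0.24 (0.32 without DEX day 7 replicate 1) and the endothelin gene Edn2 at 1.91 ± 0.87. After TAA at day 7, 12 lay above BSS, with the Tie2 ligand gene Angpt1 at 0.54 ± 0.17 (0.32 without TAA day 7 replicate 2). At day 30 the DEX differences included the vessel receptor Notch1 at -0.45 ± 0.14, its ligand Dll4 at -0.31 ± 0.13 and Serpinf1, which encodes an inhibitor of vessel growth, at -0.45 ± 0.17. The Serpinf1 value was -0.28 without BSS day 30 replicate 1. The TAA differences included Col18a1, whose fragment endostatin inhibits vessel growth, at 0.78 ± 0.29. It was at -0.62 ± 0.29 after TAA at day 7, or -0.20 without BSS day 7 replicate 1.

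Genes of oxygen sensing and of the hypoxia response were described because they belong to the pathway of Hif1a. The RNA of the oxygen-sensing genes is not read here as activity of that pathway. Of 13 oxygen-sensing genes, none passed in any drug comparison. The differences of smallest p included the hydroxylase Egln1 at 0.39 ± 0.23 after DEX at day 7, the inhibitor Hif1an at -0.28 ± 0.10 after TAA at day 7, and the ubiquitin ligase subunit Cul2 at 0.38 ± 0.17 after DEX and 0.52 ± 0.17 after TAA at day 30. Leaving out BSS day 7 replicate 1 gave 0.63 for Egln1, and leaving out DEX day 30 replicate 2 gave 0.21 for Cul2 after DEX. Of 28 hypoxia-inducible genes, none passed either. Their medians were -0.05 for DEX and -0.05 for TAA at day 7, and -0.03 for DEX and 0.00 for TAA at day 30, close to the medians of all probe sets (-0.02 to -0.01). After DEX at day 7, 9 lay above BSS and 19 below. After TAA at day 7, 10 lay above and 18 below. The glycolytic gene Aldoc had the smallest p of this list after TAA at day 7, and was at 1.55, 1.80 and 0.50 in TAA day 7 retinas, against 0.28, -0.12 and -0.07 in BSS day 7 retinas. These did not overlap, and the difference was 1.25 ± 0.29 (adjusted p = 0.705). The vasodilator peptide gene Adm was lower after TAA at day 7, at -0.45 ± 0.18.

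For each member, the 3 other genes with the most similar pattern over the 18 arrays were listed among 16299 genes, as a description. For Kdr these were the microglial receptor P2ry12 (r = 0.86), the receptor Gpr37 (0.85) and the transporter Abca8a (0.82). For Flt1 they were Gcnt2 (0.90), Aldoc (0.90) and Lamp2 (0.88). Pgf was most like the matrix gene Ccn1 (0.91), Chst2 (0.89) and Aldoc (0.88). For Vegfa the leading genes were Prpf4b, Setd1a and Nono (0.83 to 0.84), and for Vegfb they were Nrip1, Sptbn1 and Eid1 (0.92 to 0.93). For Vegfc they were Tmem255a, Tbk1 and Asb13 (0.88 to 0.89). Nrp1 was most like Nfkbie, Socs2 and Spdya (0.91 to 0.97), and Hif1a by probe set 1448183_a_at was most like Wdr47, Zfp445 and Zmynd11 (0.91 to 0.94). All points share the same 18 arrays, and the best of 16299 correlations is high by selection.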

How the data were processed

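Retinal RNA was amplified by the 2-cycle Affymetrix procedure, per the labels' protocols, and hybridised to 18 arrays, 3 for each of 6 groups. The deposited log2 values were made by the authors with RMA, per the submitters' processing notes, with version and genome build not given in the sources used here. The median over arrays was within 1e-05 of 0 in all 45101 probe sets, so the values are centred and hold no level or depth. Precision is limited by the 3 arrays per group. The log base and direction follow RMA's convention.

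With 64 control probe sets left out, 45037 entered a linear model in limma (version 3.58.1; R 4.3.3) that gave each group its own coefficient and had 12 residual and 5.48 prior degrees of freedom. P-values were two-sided and adjusted by Benjamini-Hochberg over all probe sets. Each sets a difference of means against the moderated spread between arrays within groups, pooled over all 6 groups. The spread used for a DEX comparison thus includes that of the TAA arrays. The fit was tested on simulated data. Promoter windows came from RefSeq (GRCm38.p6), and all 8 members matched by symbol.

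The members and gene lists were chosen with earlier results of these data known. Every member probe set is named, the one of highest interquartile range first. From each pathway list, the 3 genes of smallest p in each drug comparison with BSS could be named, and every gene that passed. The lists held 235 genes, of which 217 were measured, each by its probe set of highest interquartile range. Alternatives changed the arrays fitted, their weights, the normalization, the moderation, the filter, the probe set per gene and a replicate block.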

Additional observations from a re-analysis of the deposited data

Results flagged for a closer look

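The effect of DEX on Kdr (probe set 1449379_at) differed between the days by -0.80 on the log2 scale. All DEX arrays lay above all BSS arrays at day 7 and below all of them at day 30. The direct test of this difference gave a limma unadjusted p of 0.00442 and an adjusted p of 0.491 over all probe sets.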

How the results depend on the processing

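No member probe set passed in the reported fits. With any 1 array left out, the count of members that passed was 0 in 10 of the 11 comparisons and ranged from 0 to 1 for DEX against TAA at day 30, where Nrp1 1418084_at passed (0.75, adjusted p = 0.0449) without DEX day 30 replicate 3. That fit called 3023 of the 45037 probe sets (6.71%), against 0 with all arrays, and 2009 (4.46%) for DEX against BSS at day 30. Gliosis genes averaged 0.30 on this array, against -1.03 and -0.85 on the other DEX day 30 arrays. For the change of the DEX effect, 1 member (Kdr) passed when only the compared groups were fitted, as did 10 of all probe sets. That fit leaves out the TAA day 7 arrays, on which Kdr varied most (SD 0.55). Weighting arrays by how closely they follow their group called 1 for DEX against BSS at day 30 and 1 for DEX against TAA at day 30 (Vegfc 1419417_at in both). It called 2 for DEX against TAA at day 7 (Kdr and Flt1 1451756_at), 2 between the days in DEX (Kdr and Hif1a 1416035_at) and 1 for the change of the DEX effect (Kdr). Weights of this kind are no independent measure of quality: over all probe sets they called 4823 for DEX against BSS and 3959 for DEX against TAA at day 30, 860 for DEX against TAA at day 7 and 2773 for the change of the DEX effect, against 0 unweighted in each, and 7674 between the days in DEX, against 863. That last count was 2 without DEX day 7 replicate 1, 9 without DEX day 7 replicate 2, 7 without DEX day 30 replicate 1, 9 without DEX day 30 replicate 2, 2874 without DEX day 30 replicate 3 and 1 on the compared groups alone. The other alternatives left the count at 0 in every comparison, quantile normalization, robust moderation, 1 probe set per gene and the wider-varying probe sets alone (13 of the 20) among them. Over single members, 138 of the 1560 values from fits without 1 array had the opposite sign, as did 40 of 1331 under the other alternatives. Counted by probe set, the members that turned sign in at least 1 fit without 1 array ranged from 4 to 11 of 20 per comparison. The lowest count was for DEX against TAA at day 30 and between the days in DEX, and the highest for TAA against BSS at day 30. Correlations of same-numbered arrays ran from -0.22 to 0.48 (median 0.05), against -0.57 to 0.43 (median -0.02) for arrays of different number. Such overlapping ranges cannot settle whether the replicate numbers pair the samples. With a replicate block 0 members passed in all 11 comparisons. Signal over background could not be judged from centred values.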
